A study of Homo sapiens with 12 samples.

Results

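The genes described here are 8 transcription factor genes of the myeloid and erythroid blood lineages: GATA2, CEBPA, CEBPB, SPI1, GFI1, GFI1B, KLF1 and NFE2. Their KDM2B binding was read from the chromatin immunoprecipitation sequencing (ChIP-seq) peak lists of 7 human leukaemia cell lines. A peak belonged to a gene when it overlapped a fixed hg19 window around that gene by at least 1 bp. The windows held 82 of the 79473 listed peaks, 0.103%, over 194000 bp in total. The genes are grouped by their known roles, and the group was set with earlier results of these data known.

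KDM2B libraries came from K562, a chronic myeloid leukaemia line from a blast crisis with erythroid and megakaryocytic traits, from 4 lines of T-cell acute leukaemia (T-ALL), which are DND41, HPB-ALL, JURKAT as well as SIL-ALL, and from the B-cell precursor leukaemia (B-ALL) lines REH and SUP-B15. These lineages are background knowledge and are not in the labels. The labels name no treatment, and cells were kept in IMDM with 10% FBS. A Millipore antibody to KDM2B was used, and 5 further libraries were inputs of K562, HPB-ALL, SIL-ALL, REH and SUP-B15, which were not used here. No input is listed for DND41 and JURKAT among the samples used here, and the control behind their lists is not known. Each line gave 1 library and 1 list without a replicate, and read numbers are unknown. The lists held 5942 peaks in K562, 14944 in DND41, 12765 in HPB-ALL, 14839 in JURKAT, 15304 in SIL-ALL, 8146 in REH and 7533 in SUP-B15. No expression was measured, so whether a line transcribed any of these genes is not known from these data.

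KDM2B is a histone demethylase with a CXXC zinc finger that binds unmethylated CpG dinucleotides, and it brings a variant Polycomb repressive complex to CpG islands. GATA2 keeps blood stem and progenitor cells in being. CEBPA and CEBPB are leucine zipper factors of granulocytes and macrophages, and SPI1 encodes the ETS factor PU.1 of myeloid and B cells. GFI1 and its paralogue GFI1B are zinc finger repressors, the first of neutrophil and lymphoid precursors and the second of red cells and platelets. KLF1 and NFE2 activate globin and other genes of red cells, and NFE2 also acts at genes of megakaryocytes.

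KDM2B peaks were found at 7 of the 8 genes, but the genes differed widely in how many lines had them. CEBPB and GFI1 had a peak in all 7 lines, GATA2 in 5, CEBPA, KLF1 and NFE2 in 3 each, GFI1B in 1 and SPI1 in none. In all, 29 of the 56 pairs of a gene and a line had a peak. The best peak of such a pair stood at or above percentile 90 of its list in 16 pairs, of which 6 were at CEBPB, 6 at GFI1, 2 at GATA2 and 2 at CEBPA. This best peak is the highest of up to 11 in a window. How often the best peak of other stretches of the genome reaches percentile 90 was not counted, so the 16 pairs have no background here. Percentiles rank the score that the authors' peak caller gave each peak within its own list, and the scores have no stated unit.

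**Figure D1:**
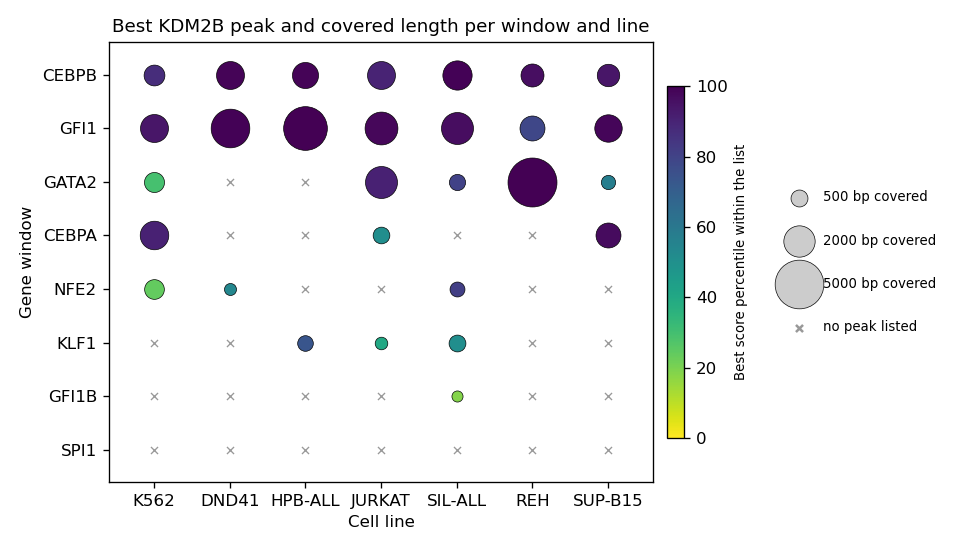
Best KDM2B peak for each gene window (rows) and cell line (columns), with 1 list per line; colour gives the score percentile of the best peak within its list and the area of a circle grows with the base pairs covered by peaks. CEBPB and GFI1 are filled in all 7 lines, GATA2 stands out in REH with 5057 bp covered, and SPI1 is empty throughout.

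The count of genes with a peak was 5 of 8 in K562, 3 in DND41, 3 in HPB-ALL, 5 in JURKAT, 6 in SIL-ALL, 3 in REH and 4 in SUP-B15. For background, hg19 without chromosome Y was cut into 125196 tiles of 24250 bp, the mean length of the windows. A peak was present in 3.39% of the tiles in K562, 5.77% in DND41, 5.66% in HPB-ALL, 6.33% in JURKAT, 6.32% in SIL-ALL, 4.01% in REH and 3.62% in SUP-B15. A peak of any line was present in 12.1% of the tiles, and a peak of every line in 0.689%. Each line thus had peaks at a larger share of these genes than of the tiles. Most tiles hold no gene start, and windows around other genes were not used here, so nothing particular to these 8 genes can be read from the difference. In tiles of Giemsa-light bands, which are gene-rich and include 7 of the 8 windows, the shares were 5.34% in K562, 8.76% in DND41, 8.44% in HPB-ALL, 9.47% in JURKAT, 9.59% in SIL-ALL, 6.32% in REH and 5.82% in SUP-B15. K562 kept 3 genes, CEBPA, CEBPB and GFI1, when only scores at or above the median of its list were read. JURKAT had 3 genes in place of 5, and lost CEBPA and KLF1, when each list was cut to its 5942 highest scores. With the same cut SIL-ALL had 4 in place of 6, without GFI1B and KLF1, and DND41 had 2 in place of 3, without NFE2.

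**Figure D2:**
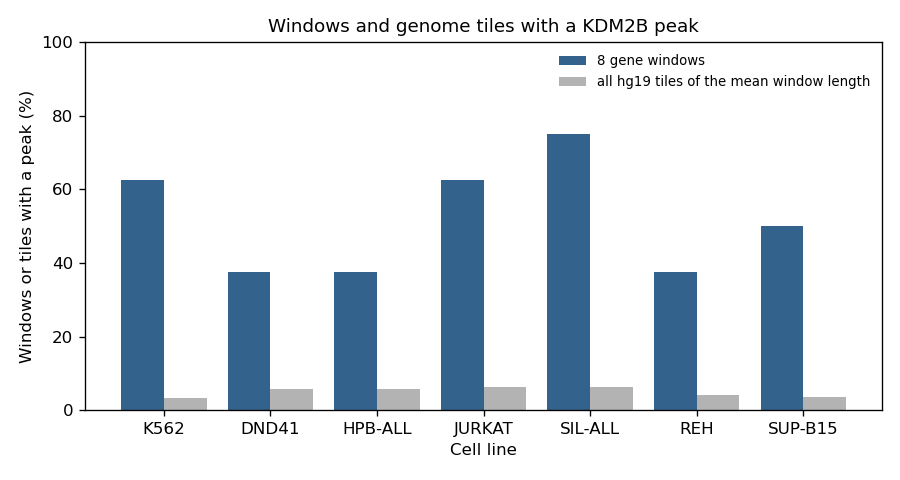
Percentage of the 8 gene windows (blue) and of all hg19 tiles of the mean window length (grey) that hold at least 1 KDM2B peak, by cell line. The blue bars stand for 3 to 6 of 8 windows, and the grey bars run from 3.39% in K562 to 6.33% in JURKAT.

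Because KDM2B recognises CpG dinucleotides, the promoters of the members are shown with each CpG in capitals. They are RefSeq sequences of 250 bases before and 50 after a gene start in the assembly GRCh38.p14, whereas peaks are in hg19, so they were not overlapped with peaks. The table held 6 of the 8 members, and 4 are printed, each at its furthest upstream start: both genes with a peak in every line, the gene with the densest promoter, and KLF1 for contrast. CEBPB lies at chr20:50190333-50190632 on the plus strand, GFI1 at chr1:92486876-92487175, CEBPA at chr19:33302485-33302784 and KLF1 at chr19:12887152-12887451, these on the minus strand.
CEBPB: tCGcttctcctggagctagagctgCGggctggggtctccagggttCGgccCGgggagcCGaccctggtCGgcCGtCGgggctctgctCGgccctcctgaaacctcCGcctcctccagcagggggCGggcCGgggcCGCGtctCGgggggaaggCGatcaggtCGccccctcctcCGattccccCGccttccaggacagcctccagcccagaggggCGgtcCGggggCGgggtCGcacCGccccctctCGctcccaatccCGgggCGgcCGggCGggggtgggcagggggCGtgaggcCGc
GFI1: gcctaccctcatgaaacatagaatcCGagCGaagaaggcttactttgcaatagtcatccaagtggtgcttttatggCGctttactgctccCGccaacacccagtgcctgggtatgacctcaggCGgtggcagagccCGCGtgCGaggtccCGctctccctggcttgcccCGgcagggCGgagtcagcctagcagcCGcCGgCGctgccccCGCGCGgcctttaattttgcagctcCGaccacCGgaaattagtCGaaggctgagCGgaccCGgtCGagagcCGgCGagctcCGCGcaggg
CEBPA: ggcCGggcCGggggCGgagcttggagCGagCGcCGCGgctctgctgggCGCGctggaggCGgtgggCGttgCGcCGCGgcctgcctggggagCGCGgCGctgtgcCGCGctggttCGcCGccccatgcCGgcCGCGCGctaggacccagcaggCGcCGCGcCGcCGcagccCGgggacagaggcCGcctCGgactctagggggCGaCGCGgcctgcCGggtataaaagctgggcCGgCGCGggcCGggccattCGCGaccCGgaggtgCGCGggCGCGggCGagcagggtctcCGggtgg
KLF1: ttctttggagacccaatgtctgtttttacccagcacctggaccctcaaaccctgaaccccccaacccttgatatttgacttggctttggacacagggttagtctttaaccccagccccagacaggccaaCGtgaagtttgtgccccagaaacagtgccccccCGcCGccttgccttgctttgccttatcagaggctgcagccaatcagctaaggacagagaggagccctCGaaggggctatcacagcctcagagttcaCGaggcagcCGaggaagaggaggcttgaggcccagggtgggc

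The CpG number in these 300 bases was 31 at CEBPB, 27 at GFI1, 50 at CEBPA and 6 at KLF1. The median over all 35116 promoters of the table was 14. As many CpGs as at CEBPA were present in 1.29% of all promoters, against 20.7% for CEBPB, 28.2% for GFI1 and 66.3% for KLF1. GATA2 had 29 and 22 CpGs at its 2 listed starts, and GFI1B had 6 and 9. The other CEBPB start had 43, and the other GFI1 starts had 20 and 23. All promoters of the 4 genes that had a best peak at or above percentile 90 in some line held 20 or more CpGs, and those of KLF1 and GFI1B, which had none so high, held 9 or fewer. Of all promoters in the table, 41.2% held 20 or more CpGs. This ordering covers 6 genes, since SPI1 and NFE2 had no promoter listed, and is a description. CEBPA does not follow a simple order of CpG number, since the densest promoter of the set had peaks in only 3 lines.

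**Figure D3:**
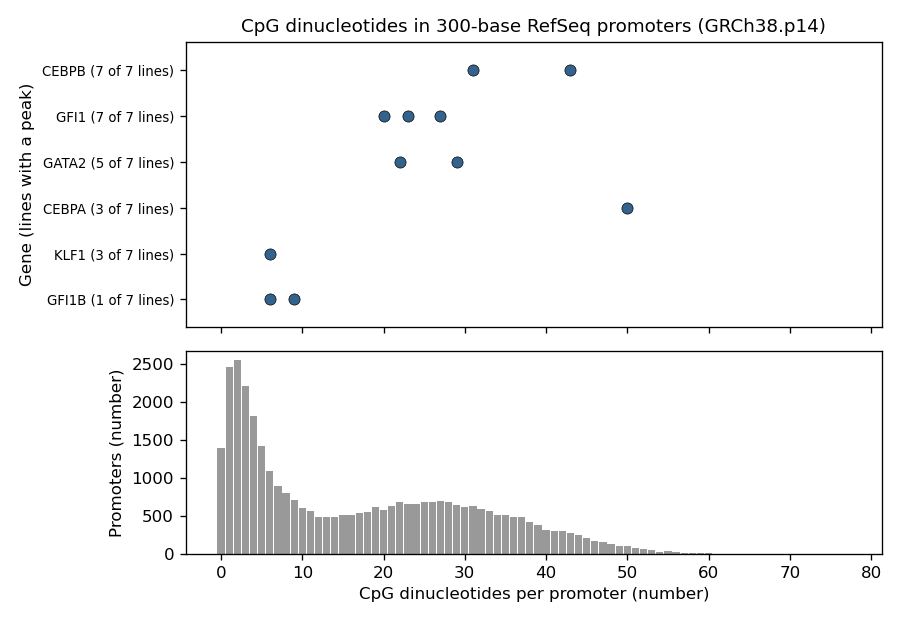
Number of CpG dinucleotides in each 300-base RefSeq promoter of the 6 members listed (top, 1 point per gene start, with the number of lines that had a peak in the hg19 window) above the distribution over all 35116 promoters (bottom). KLF1 and GFI1B lie at 6 to 9 CpGs and the other genes at 20 to 50.

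CEBPB, a factor of macrophages and of stress-driven granulocyte production, had a compact KDM2B site of the same placement in all 7 lines. Its window was hg19 chromosome 20, 48802001 to 48814000, in band 20q13.13, and the peaks of the 7 lines merged into a region at 48807182 to 48808763. The best score was 226.03 in K562, 944.15 in DND41, 1189.46 in HPB-ALL, 212.16 in JURKAT, 1946.2 in SIL-ALL, 208.99 in REH and 252.49 in SUP-B15. Within their lists these stood at percentile 87.2 in K562, 98.9 in DND41, 99.0 in HPB-ALL, 90.4 in JURKAT, 99.6 in SIL-ALL, 96.4 in REH and 94.2 in SUP-B15. K562 had the lowest percentile of the 7 lines. By place in the list JURKAT was lower, at 1427th of 14839 peaks against 761st of 5942 in K562. The 817 bp of K562 were the shortest covered length, against 967 to 1730 bp in the lymphoid lines. SIL-ALL had its 55th highest peak of the whole genome here. Peaks of all 7 lines had 313 bp in common, at 48807503 to 48807716 and 48808093 to 48808191. JURKAT differed in form: its signal was listed as 6 short peaks of 99 to 457 bp, whereas HPB-ALL had a single peak of 1349 bp and SIL-ALL one of 1577 bp. Of hg19 tiles of the same 12000 bp length, 0.319% had a peak of all 7 lines.

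GFI1, whose product silences genes in neutrophil and lymphoid precursors together with the demethylase LSD1, was the other gene with a peak in every line and had the longest peak of the set. Its window was chromosome 1, 92935001 to 92958000, in band 1p22.1, and the common region ran from 92949576 to 92952730. The best score there was 351.52 in K562, 1245.36 in DND41, 2223.1 in HPB-ALL, 493.05 in JURKAT, 854.67 in SIL-ALL, 99.27 in REH and 473.93 in SUP-B15. These were percentile 94.4 in K562, 99.5 in DND41, 99.9 in HPB-ALL, 98.1 in JURKAT, 96.5 in SIL-ALL, 78.9 in REH and 98.5 in SUP-B15. REH alone had no peak in the top decile of its list. In HPB-ALL this was the 19th highest peak of 12765 and measured 2656 bp, where the median peak of that list was 253 bp.

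Peaks covered 1569 bp of the GFI1 window in K562, 3104 bp in DND41, 4005 bp in HPB-ALL, 2207 bp in JURKAT, 2090 bp in SIL-ALL, 1226 bp in REH and 1505 bp in SUP-B15. K562 thus lay below 4 of the 6 lymphoid lines. In REH the window held 5 short peaks of at most 282 bp, of which 3 lay in the common region. Bases common to all 7 lines numbered 158, at 92951188 to 92951345. DND41, HPB-ALL and REH shared a weaker region at 92948740 to 92949460, with percentiles of 79.7 in DND41, 80.1 in HPB-ALL and 60.1 in REH. DND41 and HPB-ALL alone shared another at 92941857 to 92942199, with percentiles of 53.8 in DND41 and 21.4 in HPB-ALL. Of tiles of 23000 bp, 0.645% had a peak of all 7 lines.

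**Figure D4:**
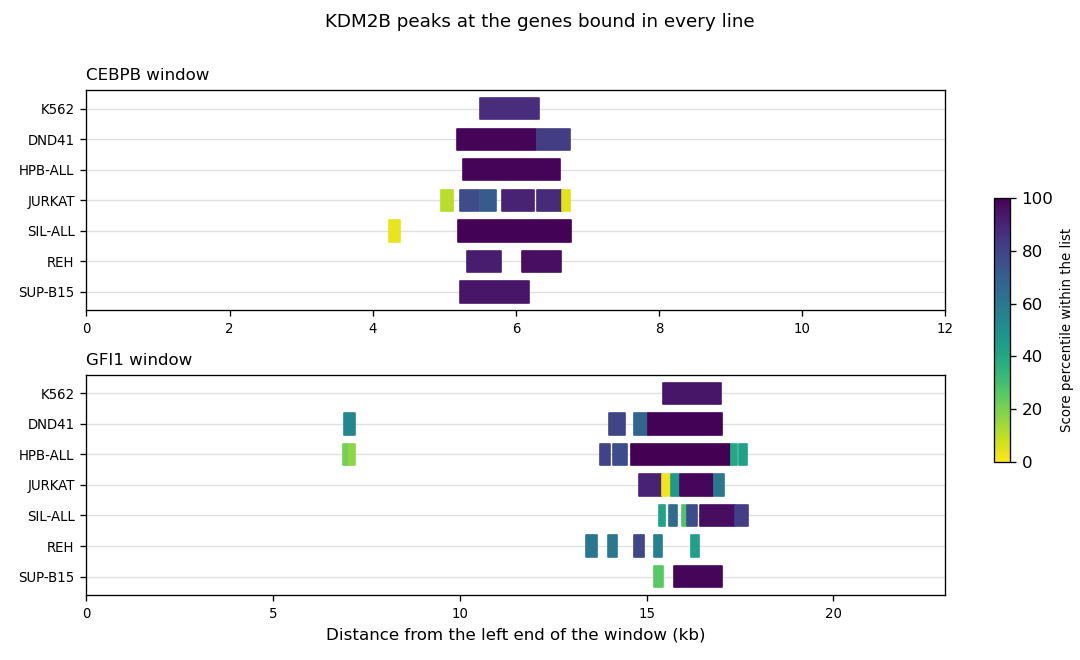
Position of every KDM2B peak in the CEBPB and GFI1 windows, by cell line, as distance in kb from the left end of the window; colour gives the score percentile within the list. In both windows the peaks of all 7 lines stack over a short stretch, which is 313 bp in common at CEBPB and 158 bp at GFI1.

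GATA2, needed for the upkeep of blood stem and progenitor cells, showed the sharpest contrast between lines. Its window was chromosome 3, 128193001 to 128217000, in band 3q21.3. REH had 11 peaks there, JURKAT 8, and K562, SIL-ALL and SUP-B15 had 1 each, whereas DND41 and HPB-ALL had none. Peaks covered 746 bp in K562, 2090 bp in JURKAT, 448 bp in SIL-ALL, 5057 bp in REH and 321 bp in SUP-B15. The REH cover was 21.1% of the window. The best REH peak, at 128208030 to 128209461, had a score of 764.79 and was the 14th highest of 8146. Best percentiles were 29.6 in K562, 90.8 in JURKAT, 80.3 in SIL-ALL, 99.8 in REH and 57.7 in SUP-B15. Of 24000 bp tiles, 0.00553% had 11 or more REH peaks and 0.0411% had 8 or more JURKAT peaks. Any REH peak was present in 3.96% of these tiles and any JURKAT peak in 6.26%. The limits of 11 and 8 are the counts seen at GATA2 itself, so these shares are a description and not a test.

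Every JURKAT peak at GATA2 lay in a region that REH also had, although the lines are of different lineages, whereas 4 regions were found in REH alone. REH and JURKAT shared 4 regions that no other line had, at 128205779 to 128206937, 128206984 to 128207336, 128211184 to 128211846 and 128216300 to 128216610. In those regions the JURKAT percentiles were 90.8, 25.0, 82.2 and 15.6 in the same order, and the REH percentiles were 99.0, 88.9, 98.3 and 82.0. K562, JURKAT, REH and SUP-B15 met in a region at 128207548 to 128209461, where 85 bp were common to the 4 lines. The single SIL-ALL peak lay elsewhere, at 128201884 to 128202331, and overlapped only a weak REH peak of percentile 22.8. With a common score floor of 80.03, the highest of the lists' lowest scores, the K562 peak, at a score of 65.54, was not kept.

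GATA2 and GFI1 ran opposite ways in 3 lines. DND41 and HPB-ALL, without a GATA2 peak, had GFI1 peaks at percentile 99.5 and 99.9. REH, with the highest GATA2 percentile, had the lowest GFI1 percentile, 78.9. JURKAT had high percentiles at both genes, 90.8 at GATA2 and 98.1 at GFI1, so the contrast did not extend to every line. This contrast was picked out after the values were seen, and with 1 list per line it was not tested.

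CEBPA, the master factor of granulocyte formation and a gene mutated in acute myeloid leukaemia, had a peak in K562, JURKAT and SUP-B15. Its window was chromosome 19, 33786001 to 33799000, in band 19q13.11. All peaks merged into a region at 33792887 to 33794526. The best score was 273.31 in K562, 80.92 in JURKAT and 342.34 in SUP-B15, at percentiles 90.9, 51.0 and 97.0 of those lists. K562 had the longest cover, 1640 bp in a single peak, against 482 bp in JURKAT, 1226 bp in SUP-B15 and 0 in the other 4 lymphoid lines. The pair of JURKAT peaks lay wholly inside the peaks of K562 and SUP-B15, which gave 482 bp common to all 3. JURKAT dropped out when each list was cut to its 5942 highest scores. Exactly this set of lines was found in 0.0141% of 13000 bp tiles, and peaks of 3 or more lines, whichever they were, in 3.24%.

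NFE2 encodes the p45 subunit that pairs with small MAF proteins at globin and platelet genes. Its window, chromosome 12, 54681001 to 54700000 in band 12q13.13, had 2 peaks in K562 and 1 each in DND41 and SIL-ALL. K562, DND41 and SIL-ALL shared a region at 54698068 to 54698528, with 194 bp in common. Scores there were 61.53 in K562, 102.58 in DND41 and 309.95 in SIL-ALL, or percentiles 24.1, 53.7 and 81.6 of those lists. A further K562 peak at 54689544 to 54689852, with a score of 58.8, was found in no other line. Both K562 peaks fell under the common score floor. The shared region lay near the right edge of the window and was lost when windows were shortened by 4 kb on each side.

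KLF1, the activator of adult beta-globin, had no peak in K562, DND41, REH or SUP-B15. A K562 peak was present in 1.94% of 13000 bp tiles, so an empty window is the usual state for a stretch of this length. Its window was chromosome 19, 12990001 to 13003000, in band 19p13.2. Peaks were listed in HPB-ALL (1), JURKAT (1) and SIL-ALL (3), while peaks of these lines were present in 3.25%, 3.63% and 3.66% of tiles of that length. HPB-ALL and SIL-ALL met in a region at 12992018 to 12992538, with scores of 215.54 in HPB-ALL and 140.76 in SIL-ALL and only 59 bp in common. The JURKAT peak lay at 12996081 to 12996303 with a score of 72.06. A SIL-ALL peak lay at the opposite edge, at 13001917 to 13002099. With the window shortened by 4 kb on each side JURKAT was the only line left. DNASE2 and GCDH are the coding neighbours of KLF1 in GRCh38.p14, and whether the outer peaks belong to them was not determined, since no hg19 annotation was used here.

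**Figure D5:**
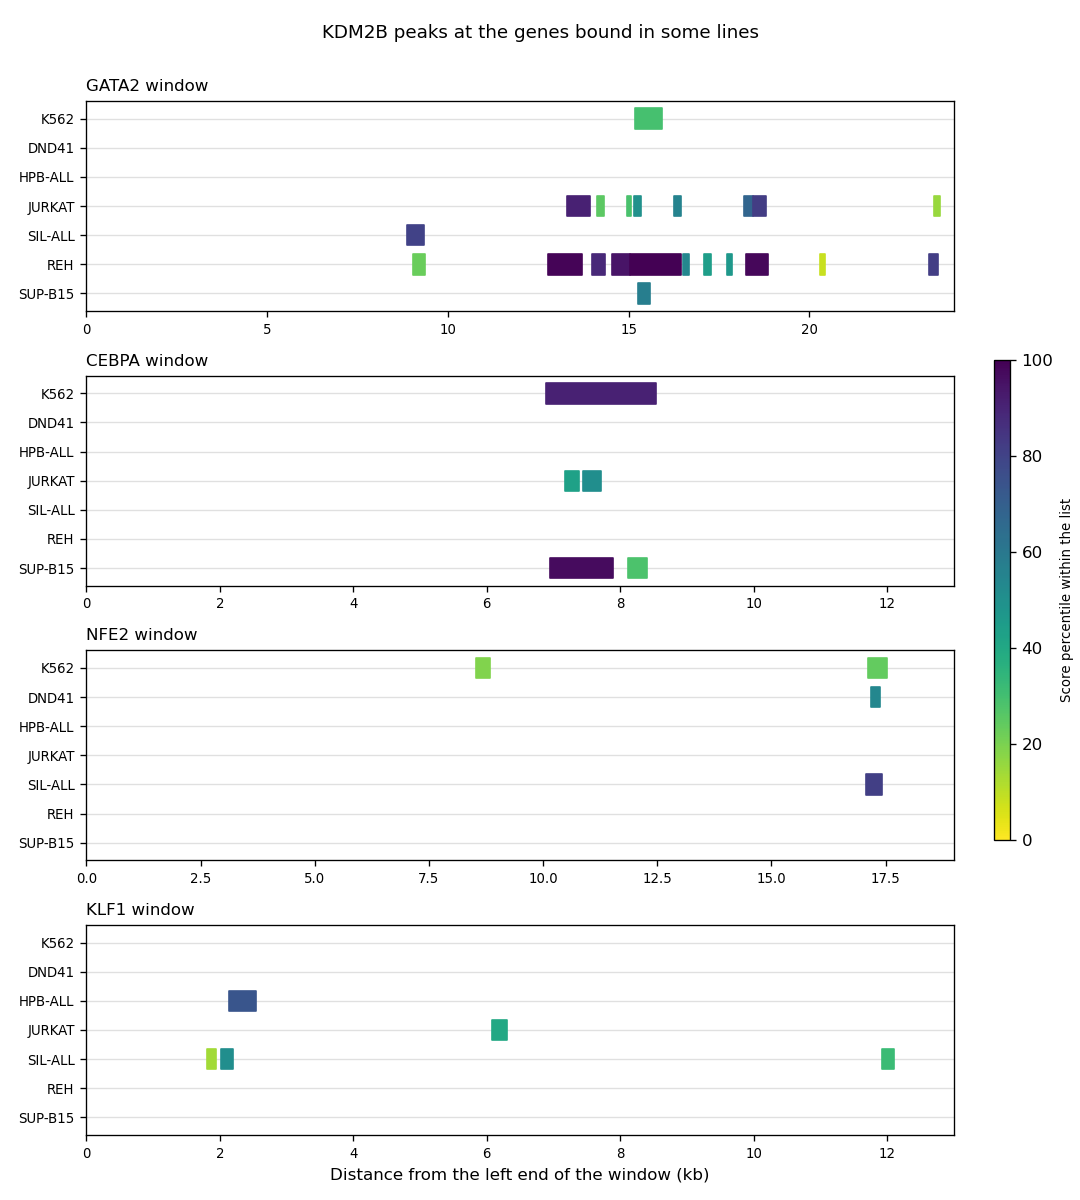
Position of every KDM2B peak in the GATA2, CEBPA, NFE2 and KLF1 windows, by cell line, as distance in kb from the left end of each window; colour gives the score percentile within the list. The JURKAT peaks at GATA2 line up with REH peaks, the CEBPA peaks of 3 lines overlap, and the HPB-ALL and SIL-ALL peaks at KLF1 lie near the window edges.

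GFI1B, the erythroid and megakaryocytic paralogue of GFI1, had a single short peak in a single line. Its window was the longest, chromosome 9, 135816001 to 135872000 in band 9q34.13, and the peak of 147 bp lay at 135859641 to 135859787 in SIL-ALL. Its score of 90.97 stood at percentile 18.4 of that list. A SIL-ALL peak was present in 12.6% of all 56000 bp tiles, and a peak of 1 or more lines in 22.3%. Most tiles of this length were thus empty, but nothing particular to GFI1B can be read from 1 weak peak. Its paralogue GFI1 had 30 peaks in 7 lines, in a shorter window.

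SPI1, the gene of PU.1, had no KDM2B peak in any list within chromosome 11, 47371001 to 47405000, in band 11p11.2. Of 34000 bp tiles, 84.4% likewise had no peak of any line, so an empty window is the common state. The nearest peak outside the window was 11.5 kb away in SIL-ALL, 24.7 kb in DND41 and 25.2 kb in REH, all on its right. It was 79.4 kb away in HPB-ALL and JURKAT and 162 kb in K562 and SUP-B15, on its left. SUP-B15 and REH, the B-lineage lines, in whose normal counterparts PU.1 acts, had none within the window either. As no read depth is given, a site below the threshold of the peak caller cannot be told from no binding.

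K562 was set against the 6 lymphoid lines as a description, since 1 line allows no test. It had a peak at 5 of the 8 genes, and the lymphoid lines had 3 to 6. It covered more of the window than any lymphoid line at CEBPA (1640 bp against at most 1226 bp) and NFE2 (718 bp against at most 361 bp). Its best percentile was not the highest at either gene. At CEBPA it was 90.9, against 97.0 in SUP-B15 and 51.0 in JURKAT. At NFE2 it was 24.1, below the 53.7 of DND41 and the 81.6 of SIL-ALL. K562 covered less than every lymphoid line at CEBPB. At GATA2 its 746 bp exceeded 4 of the 6 lymphoid lines, while its best percentile of 29.6 was below the 4 lymphoid lines that had a peak. The erythroid genes KLF1 and GFI1B had no peak in K562, DND41, REH or SUP-B15, and K562 peaks were present in 1.94% of tiles of the KLF1 length and 7.04% of tiles of the GFI1B length. K562 peaks were wide in general, with a median of 552 bp over its list against 213 to 350 bp in the other lists, so the comparison of covered lengths includes that difference.

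Lines of the T-ALL group were compared with K562, REH and SUP-B15 by an exact permutation test on percentiles, run over all 29071 merged regions, with 0 for a line without a peak. The T-ALL lists held 12765 to 15304 peaks and the others 5942 to 8146, and a given rank is a higher percentile in a longer list. A difference between the groups in percentile thus cannot be told apart from one of list length. The windows held 25 of these regions. In 4.81% of all regions every T-ALL line ranked above every other line, and this held in 0 of the 25. At GFI1 the mean percentile was 98.5 ± 1.55 in T-ALL lines (SD, n = 4) and 90.6 ± 10.3 in the other lines (SD, n = 3), a difference of 7.88 (exact permutation p = 0.0857, Benjamini-Hochberg adjusted p = 0.911). At CEBPB it was 97.0 ± 4.4 in T-ALL lines and 92.6 ± 4.8 in the others, a difference of 4.37 (exact permutation p = 0.314, adjusted p = 0.911). In the central GATA2 region it was 13.8 ± 27.6 in T-ALL lines and 62.4 ± 35.4 in the others, a difference of -48.6 (exact permutation p = 0.0857, adjusted p = 0.911). In this exact permutation test 0 of the 25 regions passed an unadjusted p of 0.05 and 0 the adjustment, while over all regions 1039 passed the unadjusted level and 0 the adjustment, in a design whose smallest p of 0.0286 leaves almost no way to pass the adjustment. GFI1 had every T-ALL line above the others when SUP-B15 was left out, as did 6.55% of all regions. CEBPB had this order when JURKAT was left out, as did 8.27% of all regions. In each case 1 region of the 25 is no more than that share.

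Of the 25 regions, 13 had a peak of 2 or more lines, against 41.8% of all merged regions. With lists of 5942 peaks this count was 8, and the share over all 16239 regions of those lists is not given here. The 8 thus cannot be set against the 41.8%. Of the 25, 2 had a peak of every line, against 2.44% of all. The remaining 12 regions came from 1 line, with 5 of these in REH, 4 in SIL-ALL, 2 in JURKAT and 1 in K562. Single-line regions stood between percentile 3.21 and 60.8 of their lists. Peaks in the windows were wider than the median of the list in K562 (median 781 bp against 552 bp), DND41 (447 against 213 bp), HPB-ALL (292 against 253 bp), REH (280 against 213 bp) and SUP-B15 (632 against 350 bp). They were slightly narrower in JURKAT (226 against 240 bp) and SIL-ALL (209 against 223 bp).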

How the data were processed

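KDM2B ChIP-seq peak lists of 7 leukaemia lines were used, 1 per line. Per the submitters' processing notes, the tools include FastQC 0.10.1 and Bowtie 1.1.1 and the build is hg19; peak names point to MACS, for which the sources used here give no version, control library or threshold. The score of each peak is the authors' own deposited value without a stated unit, and its lowest value differs between lists (50.0 to 80.03). Scores were therefore ranked within a list, as the percentage of its peaks with an equal or lower score, and depth is unknown.

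Windows were parsed from the stated coordinates, and positions count from 1. Overlapping peaks of all lists (1 bp or more) were joined as merged regions. Tiles were cut from the start of each chromosome, without Y, and counted if a peak overlapped them. The 4 T-ALL lines and the other 3 were compared with an exact two-sided permutation test of mean percentiles over all 35 ways to divide the 7 lines, with Benjamini-Hochberg adjustment over all regions; with 1 library a line, its p-values cannot tell lines from libraries. The merging and the test were checked on simulated lists. The members and lists were chosen with earlier results of these data known. Alternatives were lists of equal length, a common or median score floor, longer and shorter windows, other tiles, a 500 bp merging distance, B-ALL lines alone as the counterpart and each line left out. All 8 members were named by rule, with every region of 2 or more lines.

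Bands and chromosome lengths came from the hg19 table of circlize 0.4.16, promoters and neighbours from RefSeq (GRCh38.p14), where 6 of 8 members had a promoter. No hg19 gene annotation or genome was used here. Computations used Python 3.11.15, numpy 2.4.6 and pandas 2.3.3, and figures matplotlib 3.10.9.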

Additional observations from a re-analysis of the deposited data

Results flagged for a closer look

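For each of the 7 genes with peaks, the number of peaks, the covered length and the best percentile were searched for a line set apart from the other 6. Of 21 such values 7 were found, and 3 of the 7 come from a single peak. Chance marks about 1 in 20 independent groups, but many of these values are 0 or small whole numbers and the 3 measures of a gene share their peaks, so no chance count applies here.

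At GATA2, REH peaks covered 5057 bp, next to 2090 bp in JURKAT and 0 in the lowest lines. REH also stood apart at GFI1, with a best percentile of 78.9 below the 94.4 of K562, the next lowest, and the 99.9 of HPB-ALL.

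JURKAT had 6 peaks at CEBPB, where the other lines had 1 or 2, while its covered length of 1564 bp equalled that of DND41. SIL-ALL had 3 peaks in the KLF1 window, where the other lines had at most 1. These 3 lay near the window edges, and SIL-ALL had none left with the window shortened by 4 kb on each side. SIL-ALL was the only line with a peak at GFI1B (1 peak, 147 bp, percentile 18.4). No explanation was tested for these values.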

How the results depend on the processing

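Of 128 alternative values, 91 kept within the limits set for them and 37 moved. The values are counts and shares without a sign, so none could reverse. Some of the 91 had little or no room to change. Among them are the 12 values of the adjusted test, and K562 with lists of 5942 peaks, its own length. Of the 37, 27 are shares of tiles, which follow tile length, band and list length. The number of the 8 genes with a peak moved by over 1.5 times in 3 cases: K562 had 3 in place of 5 with a common score floor and likewise 3 with scores at or above the median of the list, and JURKAT had 3 in place of 5 with lists of 5942 peaks. SIL-ALL had 4 in place of 6 and DND41 had 2 in place of 3, both with lists of 5942 peaks and with shortened windows. HPB-ALL also had 2 in place of 3 with shortened windows. These changes did not exceed that limit. CEBPB and GFI1 had a peak of all 7 lines under every list and window alternative. Fewer lines remained with equal lists at GFI1B (0) and KLF1 (1), and with shortened windows at KLF1 (1) and NFE2 (1). Extending windows by 10 kb added only JURKAT at NFE2. Regions with a peak of 2 or more lines numbered 8 in place of 13 with equal lists and 9 when peaks within 500 bp were merged. These settings also left fewer regions over the genome, 16239 and 19022 in place of 29071. The share of those with 2 or more lines is not given here, so neither count can be read as a loss of shared regions. The count of regions in which every T-ALL line ranked above the others was 0, where 4.81% of all regions had this order. It ranged from 0 to 1 with each line left out, where 6.14% to 8.27% of all regions had it. No region passed the adjusted test in any alternative, and this says nothing about stability: with p no smaller than 0.0286 with 7 lines, and 0.05 or 0.0667 with a line left out, adjustment over so many regions leaves a region almost no way to pass. The cause of the moved values was not tested. Lists without known depth and without replicates limit what a missing peak can show. No paired analysis was possible because there is a single list for each line.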
